A study of Mus musculus with 120 samples.

Results

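The members are 24 soleus muscles of trained mice, out of 120 soleus and heart samples in the series, chosen by their labels: exercised mice of the strains ANT1, ND5, ND6 and CO1 that carry an exercise response label, 12 responders and 12 non-responders. Each strain gave 3 responders and 3 non-responders. ANT1 mice lack Slc25a4 (Slc25a4-/-), the striated-muscle gene of the carrier that brings ATP out of mitochondria in return for ADP. ND5 mice carry the mitochondrial DNA change C12352T, which alters the complex I subunit ND5 (S204F). ND6 mice carry G13997A in the complex I subunit ND6 (P25L), and CO1 mice carry T6589C in the catalytic cytochrome c oxidase subunit CO1 (V421A). All were on the C57BL/6Eij background with intact Nnt (Nnt+/+). Every mouse studied here carried a mutation in a gene for a mitochondrial protein. The gene is nuclear in ANT1 and lies in mitochondrial DNA in the other strains. Each mutation is a germline one that all tissues share. Training began at 16 weeks of age. Sessions were runs of 45 min at 50% of the mouse's maximal capacity on every 2nd day for 8 weeks, and muscles were taken 6 days after the last session. Every mouse, trained or handled, ran an exercise test before and after this period; how long before sampling the second test took place, and the threshold that divided responders from non-responders, are not given in the sources used here. As a reference, 24 non-exercised soleus muscles of the same strains (6 per strain), from mice that were handled but not trained, were placed beside both classes.

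The soleus is a slow, oxidative postural muscle of the lower leg. Repeated endurance running is known to raise mitochondrial content through the coactivator PGC-1alpha and its partners, to shift fast fibres toward slower and more oxidative myosins, and to increase capillaries and fat oxidation. A single run also switches on immediate early genes and heat shock genes for hours, so that muscles sampled days later mostly report the lasting state. The question was whether mice whose running capacity responded to training differed, within their strain, in any of these programmes from mice that had trained without responding.

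Counts per trained library ranged from 11 M to 18.6 M (M, 1e6 counts; median 13.6 M). The mean total was 14.6 ± 1.97 M in responders and 14.03 ± 2.28 M in non-responders (SD, n = 12 each; exact two-sided permutation test within strains, p = 0.392, adjusted over 2 tests 0.618). The share of counts from mitochondrial DNA was 24.5 ± 8.69% and 23.95 ± 8.62% (SD, n = 12 each; the same exact permutation test, p = 0.618, adjusted 0.618), and the smallest p this test can give is 1.25e-05. ANT1 libraries stood apart from the rest in that share, at 33.99 to 45.1% against 16.6 to 24.8% in the other strains. In ND5 the library totals of the classes did not overlap. Responders there held 16.13, 16.86 and 18 M counts and non-responders 12.49, 13.31 and 12.71 M. ANT1 totals leaned the other way, at 16.66, 15.03 and 13.89 M against 18.58, 16.37 and 17.21 M. Slc25a4 (chr8:46206797-46211284, mm10) checked the ANT1 label: the 6 trained ANT1 muscles held 5.02 to 14.7 CPM (counts scaled to a library total of 1e6) and the trained muscles of the other strains held 2520 to 4070 CPM. What remained of it in ANT1 was 5.02, 11.5 and 7.2 CPM in responders and 13.7, 14.7 and 11.8 CPM in non-responders (log2 difference -0.76 ± 0.22; adjusted p = 0.992). The slow-fibre genes that define soleus were at a high level throughout, their summed level reaching from 26970 to 39580 CPM over the trained muscles. No library pair of a group held identical values, and no label says more than that the samples came from distinct mice. One mouse, the ND5 responder B80, is labelled exercised for its soleus and non-exercised for its heart, so the ND5 counts and leading ND5 genes are given below with and without it.

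Across the 4 strains no single gene separated responders from non-responders. With strain held as a factor, edgeR's quasi-likelihood test called 0 of 13843 genes at an adjusted p under 0.05 (0%), and the smallest adjusted p was 0.936. At an unadjusted p under 0.05 the count was 641 genes (4.63%), 283 higher and 358 lower in responders. DESeq2 and limma voom called 0 genes in the same model, and edgeR called 0 without the 3 muscles of high embryonic myosin or the 2 of high Atf3 described below. The difference was small for most genes, with a median size of 0.071 on the log2 scale and a median standard error of 0.098. Its 95% interval lay inside a doubling or halving (±1 on the log2 scale) for 95.6% of genes and inside a 1.5-fold change for 81.3%. Among genes below an average log2 CPM of 1, 82.4% had an interval inside a doubling or halving, but only 31.3% had one inside 1.5-fold. For most of these weakly expressed genes a 1.5-fold difference could thus not be excluded at this depth and number of mice. Strain accounted for a mean of 30.4% of each gene's sum of squares and response class for 3.42%, while 1 of the 23 degrees of freedom would take 4.35%. The interaction of strain and class took 10.3%, below the 13% that its degrees of freedom would take. A further 55.8% lay between mice of one strain and class, where the degrees of freedom would take 69.6%. For strain that share would be 13%.

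Where classes are said below not to overlap within a strain, 3 mice stand against 3. The share of all tested genes that separate in this way was not counted. The genes with the smallest p are given as measured levels, none of which passed the test. Frzb (chr2:80411970-80447625), a secreted antagonist of Wnt signalling, stood at the head of those lower in responders. Its levels in ANT1 were 10.1, 8.3 and 10.2 CPM in responders and 14.2, 14.1 and 12.3 CPM in non-responders, so the classes did not overlap there. In ND6 the responders held 3.65, 2.34 and 3.39 CPM and the non-responders 3.25, 5.37 and 6.29 CPM. ND5 and CO1 differed by less, with responders at 2.5 to 4.41 CPM and non-responders at 3.56 to 4.74 CPM, and in both strains the classes overlapped. Over the 4 strains Frzb was lower by 0.44 ± 0.11 (log2 difference ± SE; 95% interval -0.68 to -0.21; adjusted p = 0.936), with every strain's mean difference below 0. Untrained muscles held 1.39 to 20.5 CPM with a mean of 7.10, against 6.69 in non-responders and 4.85 in responders.

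Abi3bp (chr16:56477878-56690135), which encodes a secreted matrix protein, ranged from 5.09 to 12.4 CPM in responders (median 7.95) and from 7.18 to 19.7 CPM in non-responders (median 12.2). Its ND6 values were 5.09, 7.91 and 12.4 CPM in responders and 18, 13.4 and 11.4 CPM in non-responders, which overlap in 1 mouse. The log2 difference was -0.60 ± 0.16 (95% interval -0.93 to -0.27; adjusted p = 0.936), below 0 in all 4 strains. Maf (chr8:115682942-115707794), a leucine zipper transcription factor, was lower by 0.40 ± 0.12, most of it from ND5 (-0.70 ± 0.22) and ND6 (-0.61 ± 0.22). Letmd1, whose product lies in mitochondrial membranes, held 4.86 to 6.69 CPM in responders and 5.97 to 7.33 CPM in non-responders (log2 difference -0.20 ± 0.060). Adarb1, an RNA-editing adenosine deaminase, Stag2, a cohesin subunit, Pigc, an enzyme of membrane anchor synthesis, and Ggt5, a gamma-glutamyl transferase, had differences of -0.30, -0.14, -0.23 and -0.39.

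Fhl3 (chr4:124700701-124708611), a LIM-domain protein of striated muscle that binds actin, was among the genes with higher levels in responders. Responders held 88.2 to 214 CPM (median 120), non-responders 62.1 to 131 CPM (median 102) and untrained mice 51.1 to 165 CPM (median 88.9). In ANT1 all 3 responders (95.9, 122 and 88.2 CPM) lay above all 3 non-responders (69, 62.1 and 67.2 CPM), while the classes overlapped in the other strains. The log2 difference was 0.40 ± 0.12 (95% interval 0.15 to 0.64; adjusted p = 0.936), from 0.11 in ND5 to 0.63 in ANT1. Akt1 (chr12:112653821-112674884), the kinase that relays insulin and growth factor signals, was higher by 0.21 ± 0.066 (95% interval 0.079 to 0.35). Its separation lay in ND5, where responders held 82.2, 71.6 and 60.3 CPM and non-responders 50.7, 48.2 and 58.1 CPM, and the differences in ND6 and CO1 were 0.097 and 0.098. Without the ND5 mice B11 and B69, described below, the Akt1 difference was 0.145.

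**Figure D1:**
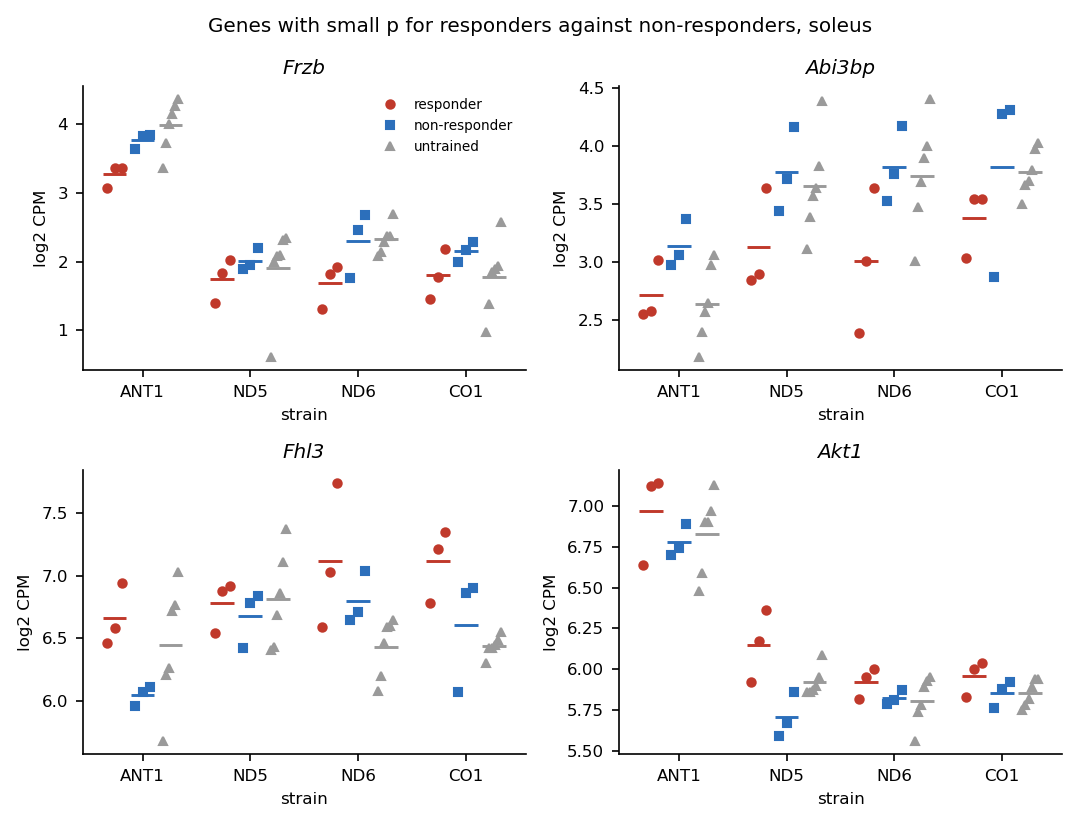
Levels of Frzb, Abi3bp, Fhl3 and Akt1 (log2 CPM, vertical axes) in the soleus of each strain, 1 point per mouse, with the mean of each group as a bar. Frzb and Abi3bp group means lie lower in responders than in non-responders of all 4 strains and those of Fhl3 and Akt1 lie higher, with overlap in most strains.

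Other genes with the smallest p on the responder side had varied roles. Mrps18b, a protein of the small mitochondrial ribosomal subunit, held 31.7 to 52.3 CPM in responders and 26.7 to 47.8 CPM in non-responders (log2 difference 0.18 ± 0.054). Riox2, a ribosomal oxygenase, was higher by 0.19 ± 0.055, and Pwp2, which acts in the making of the small ribosomal subunit, by 0.25 ± 0.079. Slc35c1, the Golgi transporter of GDP-fucose, had a difference of 0.36 ± 0.095, and P2ry2, a receptor for extracellular ATP and UTP, one of 0.27 ± 0.089. Casz1, a zinc-finger transcription factor, differed by 0.18 ± 0.055. Kcnk3, a potassium leak channel chosen from the list of excitation genes, differed by 0.83 ± 0.24, but outside ANT1 it stayed at or below 0.545 CPM in every trained mouse; in ANT1 it held 7.64, 11.7 and 4.16 CPM in responders and 4.92, 6.13 and 3.52 CPM in non-responders.

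The oxidative programme itself hardly differed. All 13 mRNAs encoded by mitochondrial DNA had a higher mean in responders, but by a median of only 0.068 on the log2 scale, and 0 of 13 reached an unadjusted p under 0.05. Among nuclear subunits of complex I, 35 of 36 lay higher (median 0.070), and for complexes II to IV 27 of 27 (median 0.058), for ATP synthase 14 of 15 (median 0.062), for the citric acid cycle and pyruvate oxidation 21 of 23 (median 0.049) and for fatty acid uptake and oxidation 21 of 23 (median 0.081). In none of these 6 lists did a gene reach an unadjusted p under 0.05. Over all genes tested 7114 of 13843 lay higher, with a median of 0.004. The direction was not the same in each strain. In ANT1, 5 of 23 citric acid cycle genes and 4 of 23 fatty acid genes lay higher (both medians -0.089), and the mitochondrially encoded mRNAs lay higher in 6 of 13 cases in ANT1 and 3 of 13 in ND6, against 13 of 13 in ND5 and 12 of 13 in CO1. Complex I genes lay higher in most cases throughout, from 26 of 36 for ND5 and 29 for CO1 up to 34 for ANT1 and 36 for ND6.

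Precision was high for these genes. Every tested gene of the respiratory chain and ATP synthase lists had a 95% interval inside a 1.5-fold change in either direction, and the widest limits were -0.13 and 0.26 in complex I, and -0.22 and 0.38 for the mitochondrially encoded mRNAs. The targeted subunits lay in the same range, with log2 differences of 0.059 ± 0.11 for mt-Nd5 (95% interval -0.17 to 0.29), 0.091 ± 0.088 for mt-Nd6 (-0.091 to 0.27) and 0.089 ± 0.10 for mt-Co1 (-0.12 to 0.30). Cytochrome c1 (Cyc1), a subunit of complex III, differed by 0.11 ± 0.060, Cox7a1, the muscle form of a cytochrome oxidase subunit, by 0.13 ± 0.079, and Atp5g1, part of the proton-conducting ring of ATP synthase, by 0.14 ± 0.071. The shared direction of these lists rested in part on 3 non-responder muscles with high embryonic myosin, described below: without them the medians were 0.036 for complex I, 0.034 for complexes II to IV, 0.010 for ATP synthase and -0.029 for the mitochondrially encoded mRNAs.

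Genes of the mitochondrial ribosome, which translates the mitochondrially encoded subunits, lay higher in 70 of 76 cases (median 0.053). An unadjusted p under 0.05 was reached by 5 of the 76, where 4.63% of all genes had one, among them Mrpl28 (0.15 ± 0.055) and Mrps34 (0.13 ± 0.056). Of 23 regulators of mitochondrial biogenesis 18 lay higher (median 0.062) and 3 reached an unadjusted p under 0.05: Ppargc1b, a coactivator related to PGC-1alpha (0.30 ± 0.14), the nuclear receptor Esrrb (0.24 ± 0.11) and the deacetylase Sirt1 (-0.17 ± 0.070). Ppargc1a, which encodes PGC-1alpha (chr5:51454250-51567726), leaned the other way. It held 64.8 to 331 CPM in responders (median 143), 94.2 to 474 CPM in non-responders (median 170) and 39 to 529 CPM in untrained mice (median 208). In ANT1 the responders held 331, 234 and 145 CPM and all 3 non-responders lay above them, at 474, 352 and 434 CPM, while in the other strains the classes overlapped. The log2 difference over the 4 strains was -0.41 ± 0.23 (95% interval -0.89 to 0.066; adjusted p = 0.936), and the spread between mice was wide: the ND6 responders alone reached from 64.8 to 327 CPM.

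**Figure D2:**
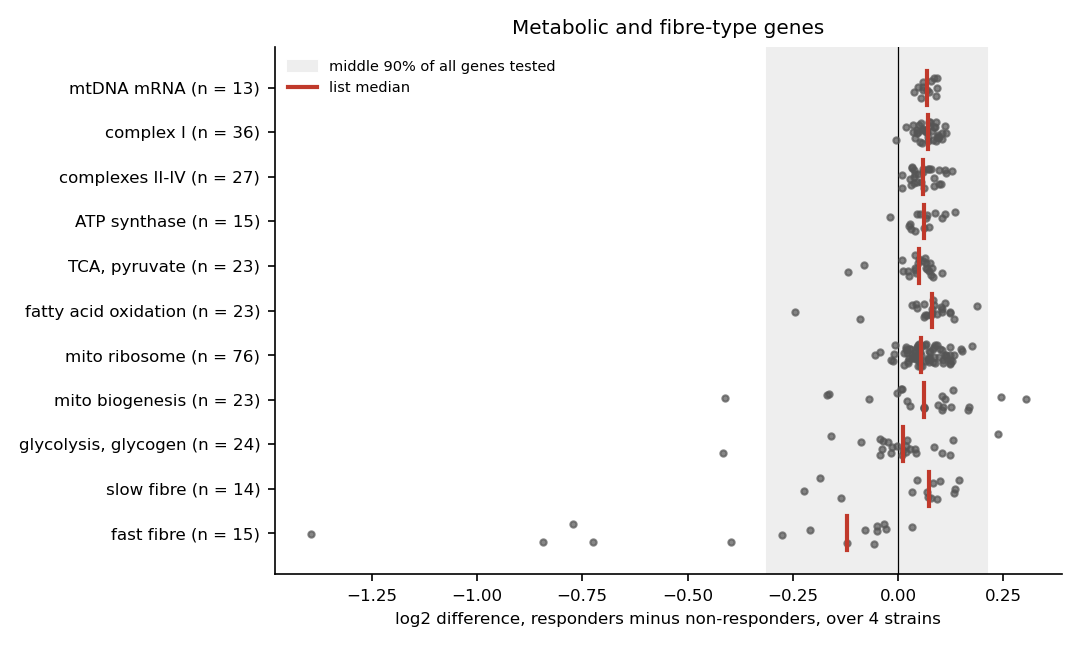
Log2 difference between responders and non-responders over the 4 strains (horizontal axis) for each tested gene of 11 metabolic and fibre-type lists (points), with the list's median as a red bar and the middle 90% of all 13843 genes tested in grey (-0.31 to 0.21). The points of the respiratory chain lists crowd just above 0, and fast-fibre genes spread to the left.

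Over the 4 strains, fibre-type genes leaned toward the slow side in responders. Of 15 fast-fibre genes 1 lay higher (median -0.12), and of 14 slow-fibre genes 11 lay higher (median 0.073). Fast genes at an unadjusted p under 0.05 were Mylpf, the fast regulatory myosin light chain (-0.28 ± 0.11), and Casq1, the calcium store protein of the fast sarcoplasmic reticulum (-0.12 ± 0.056). The strains differed in both lists. The fast-fibre median lay lowest in ANT1 (-0.33), followed by ND5 (-0.19) and ND6 (-0.059), and was 0.020 in CO1. Slow-fibre genes lay higher in 12 of 14 cases in ANT1 (median 0.20) and ND6 (median 0.14), in 8 of 14 in ND5 (median 0.014) and in 2 of 14 in CO1 (median -0.095). Myh1, the IIx myosin, held 428, 1150 and 540 CPM in ANT1 responders and 908, 3290 and 4400 CPM in ANT1 non-responders, an overlap of 1 mouse (log2 difference -2.02 ± 0.50; adjusted p = 0.959). Its level in untrained ANT1 muscles ran from 220 to 6020 CPM, wider than in either trained class, and the IIx gene differed by -0.40 ± 0.31 over the 4 strains. In ND5 the fast IIb myosin Myh4 was set by 1 muscle: non-responders held 109, 114 and 5540 CPM and responders 273, 11.6 and 126 CPM, and without the mouse at 5540 CPM (B98) the log2 difference in ND5 went from -3.80 to 0.32.

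As a share of the 4 adult myosin heavy chains by FPKM, a length-scaled level, slow Myh7 made up 44.7 ± 9.06% in responders, 41.7 ± 4.64% in non-responders and 44.5 ± 5.67% in untrained mice (SD, n = 12, 12 and 24). Oxidative IIa Myh2 made up 39.9%, 41.1% and 39.8%, IIx Myh1 13.4%, 14.3% and 13.1%, and IIb Myh4 1.92%, 2.81% and 2.70%. Pooled over strains, these shares differed between classes by less than their SD. In ANT1 alone the Myh7 share separated the classes, at 57.8, 55.9 and 53.7% in responders, 42.7, 45.6 and 41.6% in non-responders and 34.1 to 51.2% in untrained mice. In the other strains the classes overlapped, with 29.5 to 50.6% in responders and 33.6 to 51.2% in non-responders.

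Matrix and tendon genes lay lower in responders of ND5, ND6 and CO1, and none passed the adjusted test. Of 27 extracellular matrix genes 5 lay higher over the 4 strains (median -0.24) and 1 reached an unadjusted p under 0.05. This median rested on few muscles: it ran from -0.32 to -0.064 when 1 mouse was left out, the latter without the ND6 non-responder I59, was -0.12 without B9 and -0.15 without E50, and became 0.22 without all 3. With limma voom it was -0.009. The strains did not point one way: 24 of 27 lay higher in ANT1 responders (median 0.35), against 7 of 27 in ND5, 0 of 27 in ND6 and 0 of 27 in CO1 (medians -0.24, -0.39 and -0.68). Of 8 tendon genes 7 lay lower (median -0.69), 4 at an unadjusted p under 0.05, and in CO1 all 8 lay lower (median -1.64), 6 of them at an unadjusted p under 0.05, where 2.41% of all genes did so. Fmod, which encodes the collagen-binding proteoglycan fibromodulin (chr1:134037254-134048277), held 7.28, 13.6 and 8.51 CPM in CO1 responders and 12.2, 36.5 and 43.7 CPM in CO1 non-responders; 2 of the 3 non-responders, E50 and E78, stood above every responder. The Fmod log2 difference was -1.66 ± 0.60 in CO1 (adjusted p = 0.999) and -0.71 ± 0.31 over the 4 strains. Tnmd, the tendon cell gene for tenomodulin, was highest in the same 2 muscles (9.64 and 8.52 CPM) and next in the ND5 non-responder B98 (7.97 CPM). Col1a1, the chain of the main fibrillar collagen, showed the opposed ANT1 direction: responders held 35.3, 23.6 and 21.6 CPM and non-responders 20.6, 14.5 and 12.1 CPM, with no overlap (0.77 ± 0.76), while its difference over the 4 strains was -0.41 ± 0.37. Postn, for the matricellular protein periostin, ranged from 8.5 to 698 CPM in non-responders, with I59, B9 and E50 at the top (698, 430 and 332 CPM), and from 9 to 262 CPM in responders. Kera, for the proteoglycan keratocan, differed by -1.34 ± 0.45 at levels of at most 2.75 CPM. In bulk muscle, fewer cells of a type and less RNA per cell cannot be told apart, and whether the amount of attached tendon differed was not tested.

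Embryonic and perinatal myosins, which regenerating fibres express, likewise had a lower mean in responders, with single muscles far above the rest. Myh3, the embryonic myosin heavy chain (chr11:67078300-67102291), held 10 to 226 CPM in responders (median 44.2) and 11.1 to 1460 CPM in non-responders (median 41.3). The medians were close, and the 3 highest trained muscles were all non-responders: the ND6 mouse I59 at 1460 CPM, the CO1 mouse E50 at 502 CPM and the ND5 mouse B9 at 404 CPM. Untrained muscles reached from 13.7 to 1920 CPM, so levels as high occurred without training. The log2 difference was -1.39 ± 0.59 with all 24 libraries and 0.22 without those 3 mice. Myh8, the perinatal myosin, went from -1.26 ± 0.49 to -0.011, and Igf2, an insulin-like growth factor of growing and repairing muscle, from -0.84 ± 0.41 to 0.22. The 3 mice were picked for their Myh3 levels and all were non-responders, so leaving them out had to raise the Myh3 difference. The next highest for Myh3, the responders I75 (226 CPM) and B80 (145 CPM), were kept.

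The differences of several imprinted genes also shrank or reversed without I59, E50 and B9, and these genes were chosen after their values were seen. Mirg, a host transcript of imprinted microRNAs on chromosome 12 (chr12:109729764-109749460), held 14 CPM in I59 and 3.3 CPM in E50. The ND6 responder I75 followed at 1.94 CPM, above B9 at 1.61 CPM. The Mirg log2 difference was -1.94 ± 0.58, and -0.39 without the 3 mice. Its neighbours Rian and Meg3 went from -1.51 ± 0.48 and -1.33 ± 0.44 to -0.052 and -0.13, and Mest from -1.51 ± 0.60 to 0.35. Of 14 satellite cell and regeneration genes 4 lay higher in responders (median -0.18, and 0.19 without the 3 mice), and of 19 tested proliferation genes 4 (median -0.33, and -0.052 without them). With all mice, 6 of the 14 and 5 of the 19 reached an unadjusted p under 0.05 in edgeR's test, where 4.63% of all genes did so. The tendon median was -0.63 without the 3 mice, against -0.69 with them. Myf5, a transcription factor of satellite cells, depended on them least among the regeneration genes named here. Its levels were 0.608 to 2.4 CPM in responders and 1.39 to 3.48 CPM in non-responders, and its difference was -0.51 ± 0.16 with them and -0.41 without.

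**Figure D3:**
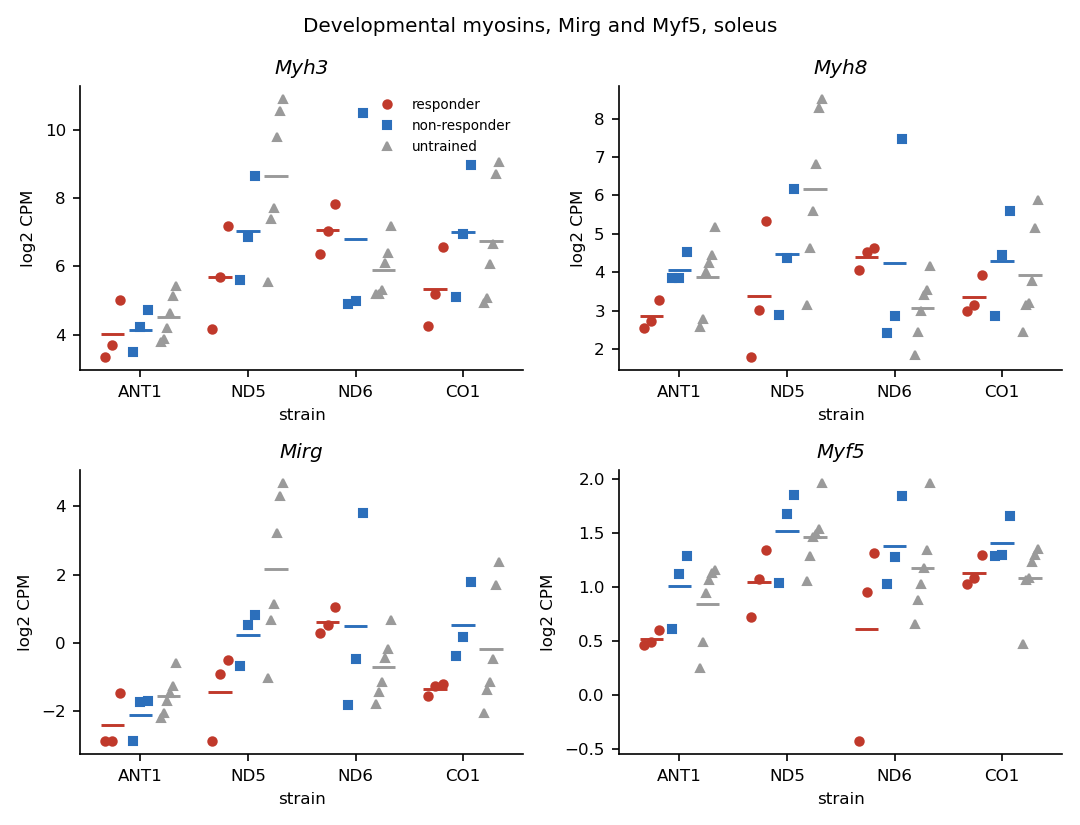
Levels of Myh3, Myh8, Mirg and Myf5 (log2 CPM, vertical axes) by strain, 1 point per mouse, with group means as bars. Single non-responder muscles of ND5, ND6 and CO1 reach the highest trained values of Myh3 and Myh8, and untrained muscles reach as high.

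Within strains, ND5 was the strain with the most genes at a small p. Its responder libraries were also all larger than its non-responder libraries, and the part of library size in the ND5 values was not tested. No gene was called in any strain when the 24 trained libraries were fitted with a mean per strain and class: 0 of 13843 (0%) in ANT1, ND5, ND6 and CO1 alike. At an unadjusted p under 0.05 the counts were 1244 genes in ND5 (8.99%), 594 in ANT1 (4.29%), 381 in ND6 (2.75%) and 334 in CO1 (2.41%). The test of whether the difference itself varied between strains called 0 genes (0%; smallest adjusted p 0.995), with 560 at an unadjusted p under 0.05 (4.05%). DESeq2 called 25 genes in ND5, 2 in ANT1, 1 in ND6, 0 in CO1 and 0 for the difference between strains. Adding the 24 untrained libraries to the fit, an alternative chosen after the data had been seen, called 36 of 14451 genes in ND5 (0.249%), 28 higher and 8 lower in responders, and none in the other strains.

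In edgeR's fit over 48 libraries, the largest differences among genes called in ND5 were those of the chemokines Ccl7 and Ccl2. They were 6.21 ± 1.26 (adjusted p = 0.0178) and 5.48 ± 1.13 (adjusted p = 0.0208), and their levels per mouse are not given here. Stress and immediate early genes were also among those called. Immediate early genes encode transcription factors and growth regulators that muscle switches on within minutes of contraction, stretch or injury. This often runs through the cyclic AMP response element TGACGTCA and its core TGACG. Promoters are shown for 3 of them to let their levels be read beside the sequence: the 250 bases before the RefSeq start (GRCm38.p6), written 5′ to 3′ on the gene's own strand, with the core (TGACG, or CGTCA on the other strand) in capitals, extended where 2 cores overlap. Arc and Egr1, further immediate early genes named below, are given without a sequence.
Atf3, chr1:191183334-191183583, minus strand: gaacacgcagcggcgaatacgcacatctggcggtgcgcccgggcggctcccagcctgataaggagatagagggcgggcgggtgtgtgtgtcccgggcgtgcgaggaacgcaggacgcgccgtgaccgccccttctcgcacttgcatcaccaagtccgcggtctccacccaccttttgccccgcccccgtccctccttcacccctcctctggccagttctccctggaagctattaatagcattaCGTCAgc
Btg2, chr1:134079156-134079405, minus strand: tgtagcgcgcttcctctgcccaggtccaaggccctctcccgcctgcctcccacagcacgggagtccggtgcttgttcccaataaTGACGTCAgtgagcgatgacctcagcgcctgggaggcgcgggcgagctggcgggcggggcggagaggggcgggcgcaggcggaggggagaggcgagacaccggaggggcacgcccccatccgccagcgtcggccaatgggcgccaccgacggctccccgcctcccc
Fos, chr12:85473640-85473889, plus strand: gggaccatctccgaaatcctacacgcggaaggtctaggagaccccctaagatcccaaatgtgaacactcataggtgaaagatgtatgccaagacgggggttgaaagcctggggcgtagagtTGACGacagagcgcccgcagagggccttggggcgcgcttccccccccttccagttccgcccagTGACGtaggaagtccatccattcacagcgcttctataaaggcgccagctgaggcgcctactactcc
The core lay 7 bases before the start in Atf3, at 166 and 163 bases in Btg2, where both strands' cores overlap in the full element, and at 129 and 66 bases in Fos. Of 32817 promoter windows of that length, 17.7% held the core on either strand and 1.55% the full element, and 0 of the 3 printed held the AP-1 site TGANTCA, found in 6.75% of windows. The CArG box CCWWWWWWGG (W, A or T) was found in 1.47% of windows and in 0 of the 3 printed. These matches describe letters, not binding.

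Atf3, a transcription factor induced by many stresses (chr1:191170296-191218039), held 364 CPM in the ND5 responder B11, 206 CPM in B69 and 26.5 CPM in B80. The ND5 non-responders held 31.8, 36.6 and 12 CPM. B11 and B69 thus stood far above, and B80 lay among the non-responders. The log2 difference was 2.90 ± 0.59 (adjusted p = 0.236), and 2.89 (adjusted p = 0.0142) in the fit over 48 libraries. Btg2, an antiproliferative early gene, held 227, 90.7 and 33.1 CPM in responders and 30.4, 28.5 and 24.1 CPM in non-responders, with no overlap (2.09 ± 0.45; adjusted p = 0.258, and 0.0142 over 48 libraries). Egr1, a zinc-finger transcription factor, held 23.4, 77 and 6.36 CPM against 5.38, 5.78 and 3.95 CPM, with no overlap (adjusted p = 0.278, and 0.0354 over 48 libraries). Fos, part of the AP-1 factor, held 89.9, 26.2 and 5.52 CPM against 8.79, 6.64 and 9.25 CPM, so B80 lay below all 3 non-responders (adjusted p = 0.368, and 0.119 over 48 libraries). Ifrd1, a transcriptional regulator in muscle repair, held 163, 242 and 61 CPM against 78, 65 and 51.1 CPM, again with B80 inside the range of the non-responders (1.27 ± 0.29; adjusted p = 0.278, and 0.0142 over 48 libraries). Arc, known from activity in neurons and muscle, held 0.786, 9.76 and 0.886 CPM against 0.218, 0.0621 and 0.565 CPM. All responders lay above all non-responders, with B69 far above the rest (log2 difference 3.75 ± 0.84, and 1.59 without B69; adjusted p = 0.278, and 0.0142 over 48 libraries).

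**Figure D4:**
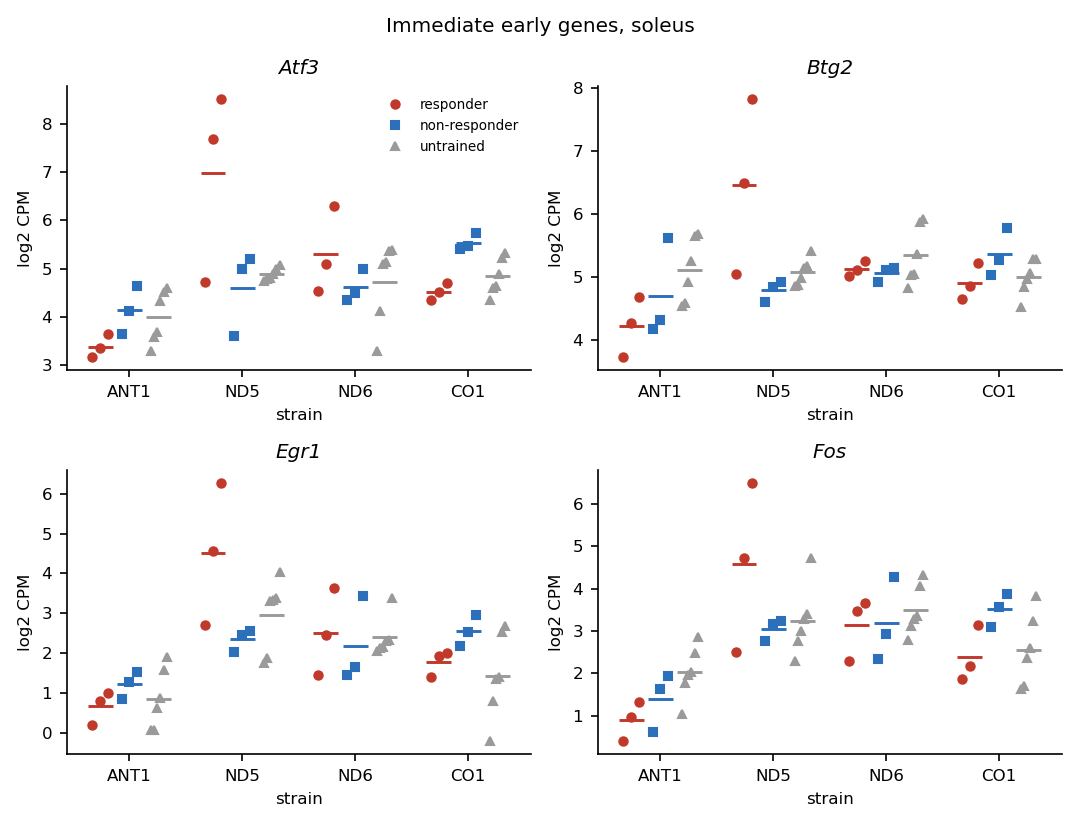
Levels of Atf3, Btg2, Egr1 and Fos (log2 CPM, vertical axes) by strain, 1 point per mouse, with group means as bars. In ND5 the responders B11 and B69 stand above the other trained mice and B80 does not, while in ANT1 and CO1 the responders' Atf3 lies below the non-responders'.

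Genes of mechanical load and protein folding lay high in the same 2 ND5 mice. Flnc, the muscle filamin that anchors sarcomeres (chr6:29433256-29461883), held 2560 and 5760 CPM in B11 and B69, against 1390 CPM in B80 and 1240 to 1500 CPM in non-responders (log2 difference 1.28 ± 0.33; adjusted p = 0.322, and 0.0208 over 48 libraries). Xirp1, a repair protein of strained sarcomeres, held 1360, 2340 and 404 CPM against 495, 343 and 232 CPM. Hspa5, the chief chaperone of the endoplasmic reticulum, held 401, 538 and 202 CPM against 233, 202 and 215 CPM (0.82 ± 0.24; adjusted p = 0.373). Xbp1, the transcription factor of the unfolded protein response, held 54.4, 76.2 and 38.4 CPM against 34.4, 33.7 and 36.8 CPM, with no overlap (0.69 ± 0.16; adjusted p = 0.278, and 0.0318 over 48 libraries). The inducible heat shock protein gene Hspa1b held 238 and 263 CPM in B11 and B69, 41.8 CPM in B80 and 82.3, 36.9 and 15.6 CPM in non-responders (adjusted p = 0.376). Dnajb1, a co-chaperone of the heat shock response, held 35.5, 19.7 and 9.28 CPM against 10.8, 10.5 and 8.33 CPM (1.13 ± 0.31). As lists in ND5, 19 of 23 immediate early genes lay higher (median 0.94; 11 at an unadjusted p under 0.05), 20 of 20 heat shock genes (median 0.39; 12) and 20 of 20 endoplasmic reticulum folding genes (median 0.41; 13), where 8.99% of all genes had such a p. In the fit over 48 libraries 4, 1 and 1 of these lists' genes were called.

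Lower in ND5 responders were Rsrp1, an arginine- and serine-rich nuclear protein (chr4:134923592-134927671), and Ogt, the enzyme that adds N-acetylglucosamine to nuclear and cytosolic proteins (chrX:101640060-101684351). Rsrp1 held 249, 159 and 137 CPM in responders and 326, 455 and 388 CPM in non-responders, with no overlap (log2 difference -1.09 ± 0.19; adjusted p = 0.157, and 0.0142 over 48 libraries). Here B80 was the lowest mouse, unlike its place among the stress genes. Ogt held 106, 106 and 68.9 CPM against 134, 137 and 134 CPM (-0.52 ± 0.13; adjusted p = 0.278, and 0.0187 over 48 libraries).

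How many ND5 genes passed turned on single mice. Without B80, 118 genes were called in ND5 (103 higher and 15 lower), without B11 1 gene, Rsrp1, and without B69 none. Without B80 the ND5 log2 difference was 3.42 for Atf3 (adjusted p = 0.000712), 2.53 for Btg2 (0.00298), 3.32 for Egr1 (0.00546), 2.83 for Fos (0.0122) and 1.64 for Flnc (0.00654), in edgeR's test with the 2 remaining responders. It was 1.12 for Hspa5 (0.00654), 0.91 for Xbp1 (0.00514), -0.92 for Rsrp1 (0.0325) and -0.34 for Ogt (0.12). B80 was the lowest ND5 responder for each of these genes, so leaving it out had to move each difference upward. The list medians over the 4 strains without B80 were 0.12 for immediate early, 0.13 for heat shock and 0.11 for endoplasmic reticulum genes. Over the 4 strains the immediate early list had 16 of 23 genes higher and a median of 0.094, which became -0.19 without B11 and B69, and the endoplasmic reticulum median went from 0.10 to 0.007. B11 and B69 were picked for their high levels of Atf3, an immediate early gene, and both were responders. Leaving them out thus had to lower the Atf3 difference and favoured lower medians, with B80 as the only ND5 responder left. The immediate early list did not share the ND5 direction in the other strains, with medians of -0.21 in ANT1, -0.060 in ND6 and -0.30 in CO1. The folding lists did so in part: heat shock genes lay higher in 18 of 20 cases in ND6 (median 0.21) and 13 of 20 in ANT1 (0.081), and endoplasmic reticulum genes in 16 of 20 in ND6 (0.12) and 11 of 20 in ANT1 (0.051), while in CO1 2 and 3 of 20 lay higher (-0.15 and -0.085). The ND6 responder I75 ranked next after B11 and B69 among trained mice for Atf3 (78.7 CPM) and Egr1 (12.3 CPM). Atf3 in CO1 held 26, 22.7 and 20.4 CPM in responders and 42.3, 53.4 and 44.2 CPM in non-responders, the reverse of ND5 with no overlap (-1.03 ± 0.57). In ANT1, too, all responders lay below all non-responders for Atf3. Egr1, Ifrd1 and Xbp1 were lower in all CO1 responders than in any CO1 non-responder. In ND6, Ifrd1 and Dnajb1 were higher in all responders than in any non-responder. With 3 mice per class such separations also arise without a class difference, and their share over all genes was not counted. The test of a strain difference gave Atf3 an adjusted p of 0.995.

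In ANT1 the interferon-stimulated genes, a cell's antiviral programme, lay higher in responders. Of 19 tested 19 were higher there (median 0.60), 6 at an unadjusted p under 0.05, where 4.29% of all genes had one. Psmb8, an immunoproteasome subunit (chr17:34197721-34201454), held 3.78, 3.64 and 6.75 CPM in responders and 2.01, 2.47 and 2.04 CPM in non-responders (1.10 ± 0.31; adjusted p = 0.985). Ifit3, an interferon-induced RNA-binding protein, held 2.33, 3.05 and 3.6 CPM against 1.25, 1.7 and 1.23 CPM (1.09 ± 0.33; adjusted p = 0.992). Both genes separated the classes in ANT1, at low levels. The guanylate-binding protein gene Gbp2 overlapped between classes, with 6.62, 4.57 and 17.8 CPM against 2.36, 5.45 and 2.62 CPM. When 1 ANT1 mouse was left out, the log2 difference ran from 0.773 to 1.249 for Psmb8, 0.946 to 1.253 for Ifit3 and 0.703 to 1.927 for Gbp2. Elsewhere the list's medians were -0.22 in ND5, -0.32 in ND6 and -0.067 in CO1. Macrophage genes in ANT1 had a median of 0.30, with 10 of 15 higher, and 0 of them at an unadjusted p under 0.05; their part in the interferon values was not tested. Agbl1, an enzyme that trims glutamate chains from proteins, had the smallest ANT1 adjusted p among the genes named here, at 0.443: its levels were 8.95, 6.01 and 4.72 CPM in responders and 15, 12.1 and 14.4 CPM in non-responders (-1.06 ± 0.21), with no overlap. The classes did not overlap in ND5 or ND6 either, where responders held 12.4, 9.21 and 15.6 CPM and 13.1, 11.7 and 13.6 CPM against 15.9, 16.1 and 16.5 CPM and 18.8, 14.9 and 15 CPM in non-responders. In CO1 they did (0.054 ± 0.19), and over the 4 strains the difference was -0.41 ± 0.12 (adjusted p = 0.936).

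ND6 and CO1 gave fewer differences. Acta2, smooth muscle actin of vessel walls (chr19:34241090-34255590), was the gene most clearly lower in ND6 responders among those named here, at 16.9, 23.3 and 20.7 CPM against 46.9, 26.8 and 37.2 CPM, with no overlap (-0.87 ± 0.21; adjusted p = 1). In CO1, too, all responders lay below all non-responders for Acta2. Of 12 smooth muscle and pericyte genes 1 lay higher in ND6 responders (median -0.25). In CO1 the white adipocyte list had a median of -0.78, with 3 of 10 genes higher, against 0.31 in ND6. Haemoglobin and other red cell genes, which mark blood left in the muscle, lay lower in responders of ANT1, ND6 and CO1 (medians -0.48, -0.48 and -0.44) and higher in ND5 (0.096), and their part in the other values was not tested. Summed over the list, red cell genes held 137.5 to 467.9 CPM in responders and 120.3 to 580 CPM in non-responders.

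**Figure D5:**
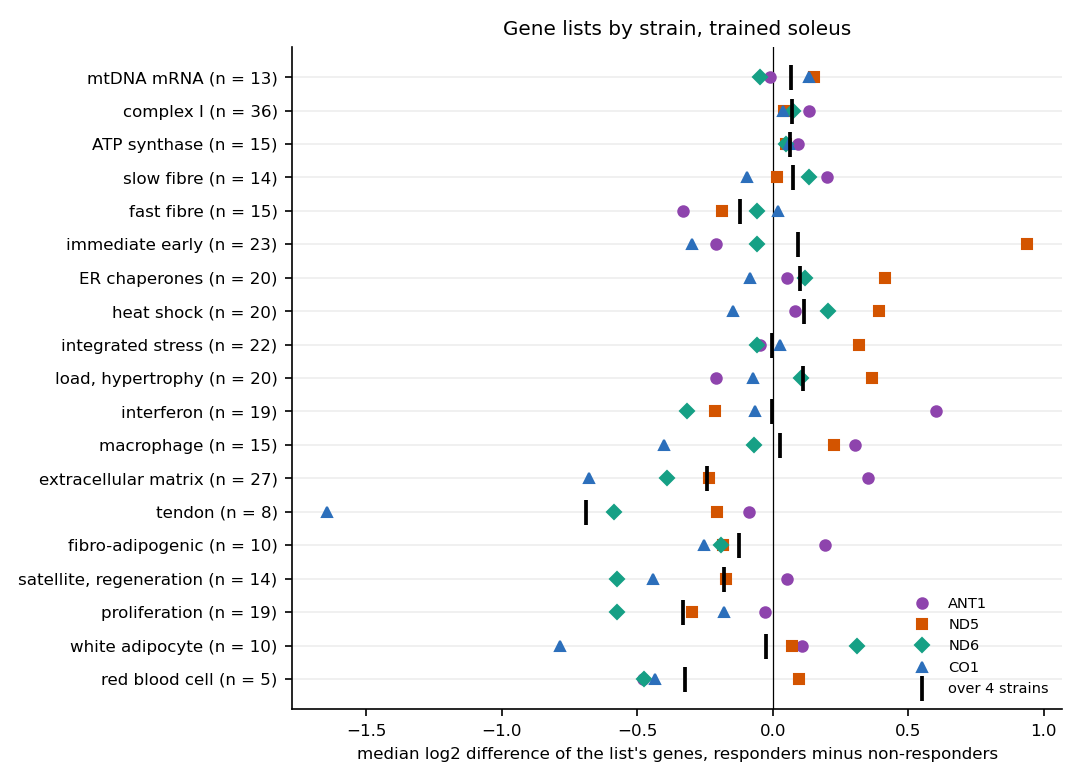
Median log2 difference, responders minus non-responders (horizontal axis), of the tested genes of 19 lists, 1 symbol per strain and a black bar for the fit over the 4 strains. Respiratory chain lists stay near 0 in each strain, while tendon genes in CO1 (-1.64) and immediate early genes in ND5 (0.94) lie farthest out, followed by white adipocyte genes in CO1 (-0.78), matrix genes in CO1 (-0.68) and interferon genes in ANT1 (0.60).

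Set beside the untrained mice, which both comparisons share, more genes had a small p in responders than in non-responders, a contrast that was not itself tested. Against untrained mice 0 of 14451 genes were called for responders (0%; smallest adjusted p 0.0562) and 0 for non-responders (0%; smallest adjusted p 1), and the counts at an unadjusted p under 0.05 were 1272 (8.80%) and 289 (2.00%). Klhl20, an adaptor of a ubiquitin ligase (chr1:161088375-161131511), was nearest to the threshold. Responders held 5.68 to 11.8 CPM (median 8.4), non-responders 7.84 to 11.3 CPM (median 9.87) and untrained mice 7.26 to 13.2 CPM (median 10.6). Its difference from untrained was -0.27 ± 0.051 in responders (adjusted p = 0.0562) and -0.068 ± 0.050 in non-responders. Mrps18b differed from untrained by 0.22 ± 0.043 in responders (adjusted p = 0.0587) and by 0.042 ± 0.043 in non-responders, and Ddx56, a nucleolar RNA helicase, by 0.24 ± 0.051 (adjusted p = 0.117) and 0.078 ± 0.051. DESeq2 called 5 genes for responders against untrained, and leaving out single mice gave 0 to 8 calls in edgeR; the highest count came without B80, with 3 calls without the ANT1 responder A13, 4 without the ND6 responder I94 and at most 2 without any other mouse.

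By lists, the responders' median difference from untrained was 0.11 for complex I, 0.13 for the mitochondrially encoded mRNAs and 0.11 for fatty acid oxidation. The non-responders' medians were 0.035, 0.069 and 0.035. For matrix genes the medians were -0.29 and -0.069, for tendon genes -0.29 and 0.23, and for proliferation genes -0.43 and -0.13. Fhl3 was 0.39 ± 0.11 above untrained in responders and -0.012 ± 0.11 in non-responders, Frzb -0.41 ± 0.14 and 0.027 ± 0.13, and Maf -0.41 ± 0.098 and -0.033 ± 0.095. None of these single genes passed the adjusted threshold in either comparison.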

How the data were processed

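Poly(A)-selected RNA from soleus was sequenced as paired ends with a kit for which no strand setting is stated, per the labels' protocols, so overlapping and antisense genes cannot be told apart. The authors deposited expected counts per gene and FPKM, made with STAR 2.5.2b and RSEM 1.2.28 on mm10, per the submitters' processing notes; what each tool did was not stated. The expected counts were rounded to whole numbers, and the deposited FPKM values served only for the myosin shares. Columns were matched to samples by mouse code, and 12 columns that matched no sample were not used. Trained libraries held 11 M to 18.6 M counts (M, 1e6).

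Genes were filtered with edgeR's filterByExpr by strain and class (13843 of 53656 kept for 24 libraries, 14451 for 48), scaled by TMM and fitted with edgeR 4.0.16 (R 4.3.3) by its quasi-likelihood F test with strain and response class as terms (19 residual degrees of freedom, prior 4.93). Fits with a mean per strain and class gave the contrasts within strains, the test of a difference between strains, and, over 48 libraries, the contrasts with non-exercised mice. P-values were adjusted by Benjamini-Hochberg over all genes tested, and genes with an adjusted p under 0.05 count as called; standard errors are the log2 difference divided by the square root of F. Levels are CPM on the TMM-scaled library size, plotted as log2 with a prior count of 2. Library totals and mitochondrial shares were compared by an exact two-sided permutation test within strains. The scripts were tested on simulated data.

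Genes were named by a rule: the mutated genes and Nnt, the 15 lowest p-values per direction at an average log2 CPM of at least 1, called genes per strain, and the 4 members with the smallest p of each of 41 gene lists with every called member. Further genes, among them Klhl20, Ddx56, the imprinted genes and the ND5 genes called over 48 libraries, were named after their values were seen. The members and lists were chosen with earlier results of these data known. Alternatives were DESeq2 1.42.0, limma 3.58.1 voom, DESeq2 size factors, other filters, a fast-fibre covariate, leaving out each mouse or strain, and leaving out muscles that stood apart. Replicates are distinct mice by their codes, without litter or batch, so p-values measure the spread between these mice. Positions are GENCODE M21 (GRCm38) genes, 1-based, and promoters are RefSeq GRCm38.p6.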

Additional observations from a re-analysis of the deposited data

How the results depend on the processing

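No paired analysis was possible because the labels give mouse codes and no replicate number, litter or batch shared between classes. The count of 0 called genes over the 4 strains held under every alternative except no filter on low counts, which called 1. That setting called 28 genes in ANT1, 197 in ND5, 5 in ND6, 5 in CO1 and 131 for the difference between strains; the cause was not tested. DESeq2 called 2 in ANT1, 25 in ND5, 1 in ND6 and 5 for responders against non-exercised mice, and edgeR with DESeq2's size factors called 1 for the last. In ND5 the fit over 48 libraries called 36. Leaving out 1 mouse at a time gave 0 to 118 calls in ND5, 0 to 1 in ND6 (1 without the non-responder I63), 0 to 2 for the difference between strains (2 without B80, 1 without I94) and 0 to 8 for responders against non-exercised mice. The mean difference in library totals ran from 0.408 to 0.846 M counts, and that in mitochondrial share from -0.285 (without the ANT1 responder A81) to 1.11 percentage points; with medians it was -0.387. Of 131 named gene differences, 121 kept their direction throughout. Reversals were mt-Nd5 at -0.002 (limma voom), -0.004 (without CO1) and -0.055 (without I59, E50 and B9), Slc25a4 at 0.011 and Nnt at 0.069 with a fast-fibre covariate and at 0.103 and 0.157 without ANT1, and Myh4 at 0.589 with that covariate. Leaving out single mice, Slc25a4 ranged from -0.109 to 0.004, Nnt from -0.078 to 0.079, and Myh4 in ND5 from -4.789 to 0.324. Without I59, E50 and B9, mt-Co1 stood at -0.009, Myh3 at 0.221, Chrng at 0.258, Igf2 at 0.221 and Mest at 0.354. Depth limits mainly genes below a log2 CPM of 1.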
